A study of Homo sapiens with 4 samples.

Results

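The genes described here are 10 members and neighbours of the circadian clock, namely BHLHE40, BHLHE41, ARNTL (also called BMAL1), PER1, PER2, PER3, CRY1, CRY2, NR1D2 and DBP. They were chosen by gene symbol and by a position on a named chromosome, and each symbol matched 1 of the 62077 entries of the expression table, of which 56627 lie on such chromosomes. Expression was measured by RNA-Seq in FaDu, an established human line of squamous carcinoma cells from the hypopharynx. The cells carried a lentiviral hairpin, either a scrambled control (scr) or TET1-si, which targets TET1, a dioxygenase that oxidises methylated cytosine in DNA. They were then kept in air with 5% CO2 (normoxia, N) or spent 19 h at 1% O2 in 94% N2, also with 5% CO2 (hypoxia, H). The 4 libraries are called N-scr, H-scr, N-si and H-si, with 1 library per group and therefore no replicate check of any difference. All 4 carry a pLKO.1 vector, and TET1-si is described in the study's methods by a single hairpin sequence used in infected cells, so loss of TET1 and any other effect of that hairpin cannot be told apart. No synchronisation of the clock and no hour of harvest are given in the sources used here, so a change of level and a shift of phase cannot be told apart either.

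The clock of mammalian cells is a feedback loop of transcription. ARNTL pairs with CLOCK or NPAS2 and activates genes through E-boxes in their promoters, and among these genes are the PER and CRY repressors, which accumulate and block the activator pair. NR1D2 represses ARNTL, DBP passes the rhythm to output genes through D-boxes, and BHLHE40 and BHLHE41 (DEC1 and DEC2) are E-box repressors that also belong to the known targets of hypoxia-inducible factors (HIFs).

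These roles rest on short DNA elements, which are shown here with an example or a pair for each element searched. RefSeq promoter windows (GRCh38.p14) run from 250 bases before a start site to 50 bases after it, and all 10 members matched, with 14 windows between them. Capitals mark the letters searched for, each line reads 5′ to 3′ on the strand of its gene, and both strands were searched. The E-box CACGTG is the site of ARNTL and of the BHLHE proteins.
BHLHE41, chr12:26125068-26125097, minus strand: tggtacgttccgCACGTGagctgggtgctg
PER1, chr17:8152560-8152589, minus strand: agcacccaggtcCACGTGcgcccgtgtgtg
The D-box TTATGTAA is the site of DBP, and TTACGTAA is a variant of it.
PER3, chr1:7784103-7784132, plus strand: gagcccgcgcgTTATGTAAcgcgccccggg
PER2, chr2:238288595-238288624, minus strand: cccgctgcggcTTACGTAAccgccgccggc
AGGTCA is the core of the site shared by NR1D2 and the ROR activators, and ACGTG is the core of the HIF site and lies inside every CACGTG.
ARNTL, chr11:13277809-13277838, plus strand: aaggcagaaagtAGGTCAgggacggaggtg
CRY1, chr12:107093621-107093650, minus strand: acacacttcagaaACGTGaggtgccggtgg

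CACGTG occurred in windows of 4 members (BHLHE40, BHLHE41, PER1 and NR1D2), in 4 of the 14 windows, against 7.26% of all 35116 RefSeq windows. ACGTG was found in 7 members and 8 windows, against 21.4% of all windows, and of these members PER2, CRY1 and CRY2 held no CACGTG, while BHLHE40 held ACGTG both inside and outside its CACGTG. TTATGTAA was found in PER3 and NR1D2, in 2 of the 14 windows, against 0.886% of all windows. TTACGTAA was found in PER2, in 1 window, against 0.125%. AGGTCA was found in ARNTL, PER1 and CRY2, in 4 windows, against 13.8%. DBP held none of these words in its window. A match describes letters and is not a measured binding site.

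The libraries held approximately 22360000 to 24420000 reads, recovered from the whole-number steps of the low values. The level of a gene is given in FPKM (fragments scaled to exon length and to the number mapped), which are comparable between genes. A fold is the plain ratio of 2 FPKM, and the interval after it is a 95% counting interval from the approximate reads, which covers counting error only. TET1 itself was at 0.129 in N-scr against 0.331 in H-scr and 0.0493 in N-si against 0.122 in H-si, from 28, 76, 11 and 26 approximate reads. It was thus lower in both TET1-si libraries, by 2.63-fold under normoxia (1.32 to 6.07) and 2.71-fold under hypoxia (1.70 to 4.36). With so few reads the size of the knockdown is imprecise. Squamous markers were abundant in the scrambled cells, with KRT5 at 2673 and 3992 and TP63 at 42.1 to 54.8 across libraries, but the keratins differed with the knockdown. The summed level of 7 squamous and epithelial markers was 5948 in N-scr against 7413 in H-scr and 1825 in N-si against 2728 in H-si. The 4 keratins of the 7 (KRT5, KRT14, KRT8 and KRT18) were at least 2-fold lower in TET1-si cells under either oxygen state. CDH1 and EPCAM went the other way. They were at 1.49 and 1.33 times the scrambled level under normoxia and at 1.37 and 1.61 times under hypoxia. KRT14 was at 42.1 and 99.9 in N-scr and H-scr and at 0.487 and 1.41 in N-si and H-si. Endothelial CDH5 ranged from 8.75 to 45.5 and VWF from 0.160 to 2.94, and their sum was 8.91, 17.8, 22.2 and 48.4 in N-scr, H-scr, N-si and H-si. The 5 fibroblast markers summed to 5.30, 28.7, 14.1 and 37.3, nearly all of it COL1A1, while COL1A2 was listed at 0 in all 4. Of the leukocyte markers CD3E was listed at 0 in all 4, PTPRC reached 0.0101, and CD14 lay between 1.45 and 3.46. The part of these differences in the values below was not tested.

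**Figure D1:**
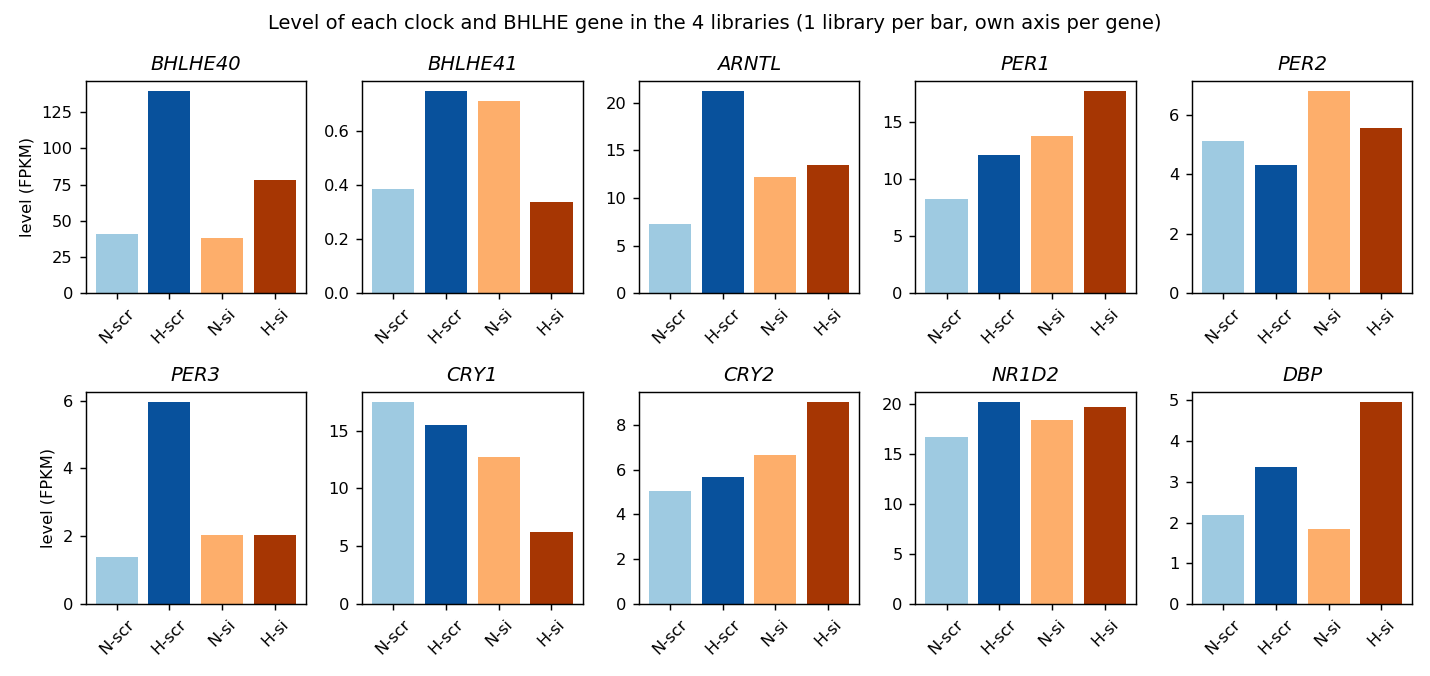
Level in FPKM (vertical axis, own scale for each gene) of the 10 genes, with 1 bar for each of the 4 libraries. BHLHE40, ARNTL and PER3 had their highest bar in H-scr, and CRY1 had its lowest in H-si.

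BHLHE40 (ENSG00000134107, chr3:5020801-5027008, plus strand, hg19) encodes the repressor DEC1 and was the most abundant of the 10. Its FPKM was 40.7 in N-scr against 139.6 in H-scr and 38.4 in N-si against 78.5 in H-si, from 2729, 10016, 2755 and 5160 approximate reads. Its mean lay above that of 87.0% of the 15057 genes with a mean of at least 1. Both hypoxic libraries stood above both normoxic ones, and H-scr stood far above H-si. With hypoxia the level was 3.43-fold higher in scrambled cells (3.29 to 3.58) and 2.05-fold higher in TET1-si cells (1.95 to 2.14). Between the knockdown states, TET1-si cells had 0.562 of the scrambled level under hypoxia (0.544 to 0.581), which is 1.78-fold lower, and 0.943 of it under normoxia (0.894 to 0.994). The fold in TET1-si cells was thus 0.596 of that in scrambled cells (0.560 to 0.635). In bulk RNA, fewer cells that express a gene and less of its RNA per cell cannot be told apart.

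The base level of BHLHE40 was therefore nearly equal in the normoxic libraries, and the libraries parted under hypoxia. The 50 nearest protein-coding genes had a median TET1-si response of 0.32 on the log2 scale under hypoxia and 0.41 under normoxia, both upward. Less these medians, BHLHE40 was at -1.15 under hypoxia and -0.50 under normoxia. The antisense transcript BHLHE40-AS1 shares 451 bases of exon on the opposite strand, and the counting is not stated to use strand, but its FPKM lay between 0.408 and 0.658 in the 4 libraries.

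The promoter of BHLHE40 is printed as an example of HIF site cores, which were found in windows of 7 of the 10 members. NR1D2 held them as well, and ARNTL and PER3 held none. Any part of these letters in a response was not tested. The 250 bases before its start site are given with every ACGTG, in either orientation, in capitals, and the first of them is part of the E-box CACGTG.
BHLHE40, chr3:4979187-4979436, plus strand, GRCh38.p14: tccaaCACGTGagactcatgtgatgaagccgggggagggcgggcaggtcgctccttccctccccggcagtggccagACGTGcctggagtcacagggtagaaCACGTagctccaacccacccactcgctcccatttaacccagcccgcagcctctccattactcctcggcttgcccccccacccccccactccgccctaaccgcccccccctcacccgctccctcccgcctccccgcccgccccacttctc

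BHLHE41 (ENSG00000123095, chr12:26272959-26278060, minus strand, hg19), the DEC2 paralogue, was close to silent in these cells. Its FPKM was 0.385 in N-scr against 0.749 in H-scr and 0.711 in N-si against 0.337 in H-si, from only 31, 65, 61 and 27 approximate reads. H-scr and N-si formed a higher pair, and N-scr and H-si a lower pair, and within either pair the counting interval of the ratio included 1. The hypoxic level was 1.95 times the normoxic one in scrambled cells (1.26 to 3.11) and 0.474 times in TET1-si cells (0.295 to 0.772). After knockdown it was 1.85 times the scrambled level under normoxia (1.17 to 2.93) and 0.451 times under hypoxia (0.278 to 0.720). The 50 nearest genes were higher after knockdown, with log2 medians of 0.74 under normoxia and 0.59 under hypoxia. Less these, the normoxic log2 value of BHLHE41 moved from 0.74 to -0.001 and the hypoxic one from -0.96 to -1.55, so the normoxic difference was no larger than that of its neighbours. The ratio of BHLHE40 to BHLHE41 was 105.8 in N-scr against 186.5 in H-scr and 54.0 in N-si against 232.7 in H-si, so BHLHE40 was the main DEC transcript in every library. SSPN, which shares 162 bases of exon on the opposite strand, was itself at 0.338 to 0.986, so reads of the pair cannot be assigned with certainty. With a mean of 0.545, BHLHE41 fell under the minimum of 1 for the counts of changed genes given further on.

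ARNTL (ENSG00000133794, chr11:13298199-13408813, plus strand, hg19) encodes the activator at the core of the loop. Its FPKM was 7.27 in N-scr against 21.2 in H-scr and 12.2 in N-si against 13.5 in H-si. H-scr was the highest library, N-scr the lowest, and the 2 TET1-si libraries lay close together between them. ARNTL was 2.92-fold higher with hypoxia in scrambled cells (2.61 to 3.26) and 1.11-fold higher in TET1-si cells (1.00 to 1.23). The TET1-si response had opposite directions in the 2 oxygen states, 1.68-fold higher under normoxia (1.49 to 1.89) and 1.57-fold lower under hypoxia, at 0.637 of the scrambled level (0.582 to 0.696). Both the higher base level and the lower hypoxic level enter the hypoxia fold of TET1-si cells, which was 0.380 of that in scrambled cells (0.328 to 0.440). Genes around ARNTL were lower after knockdown under both conditions, with medians of -0.41 under hypoxia and -0.30 under normoxia on the log2 scale. Less these medians, the TET1-si response of ARNTL was -0.24 and 1.04.

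**Figure D2:**
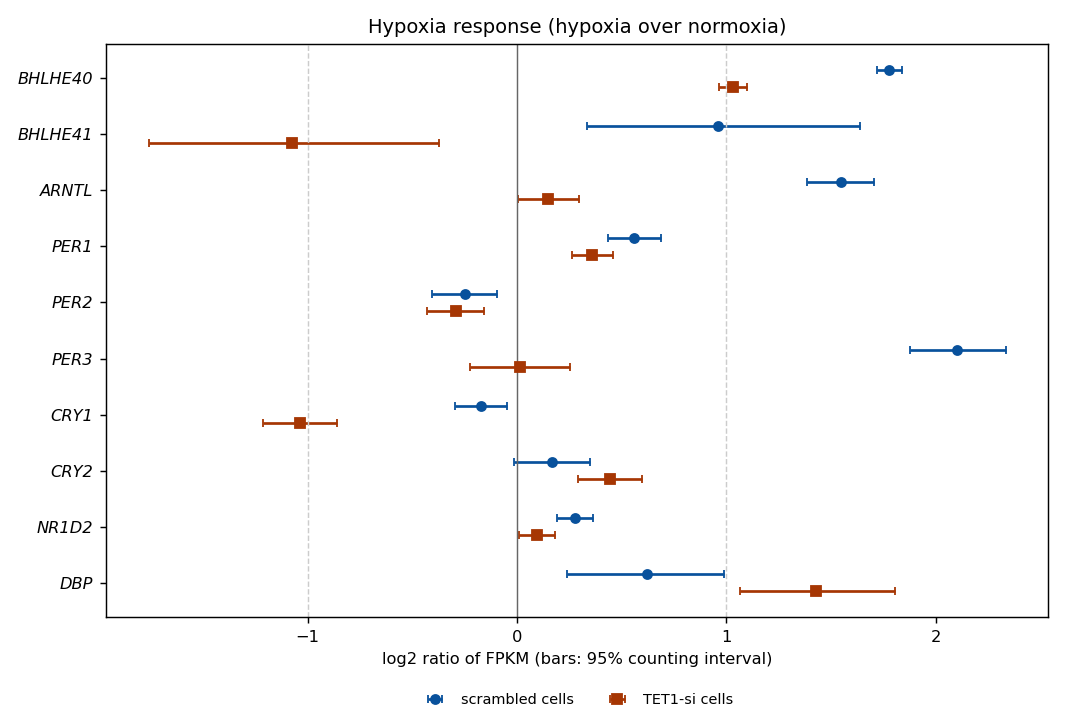
Hypoxia response of each gene (log2 ratio of hypoxia to normoxia, with no pseudocount) in scrambled (circles) and TET1-si cells (squares), with 95% counting intervals; dashed lines mark 2-fold. ARNTL and PER3 lie beyond the right dashed line in scrambled cells and near 0 in TET1-si cells, whereas BHLHE40 lies beyond it in both.

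The 3 period genes, which encode the PER repressors, did not move together. PER1 (ENSG00000179094, chr17:8043790-8059824, minus strand, hg19), an immediate-early period gene, was at 8.22 in N-scr against 12.1 in H-scr and 13.8 in N-si against 17.7 in H-si. It was higher with either change, by 1.47-fold with hypoxia in scrambled cells (1.35 to 1.61) and by 1.68-fold with TET1-si under normoxia (1.54 to 1.83). The hypoxia response in TET1-si cells was 1.28-fold (1.20 to 1.38), and the TET1-si response under hypoxia was 1.46-fold (1.36 to 1.57). Genes around PER1 were also higher after knockdown, with log2 medians of 0.76 under hypoxia and 0.62 under normoxia. Less these, PER1 was at -0.22 and 0.13, so its direction under hypoxia turned round. A gene on the same strand, ENSG00000263620, shares 30 bases of exon with PER1 and was listed near 0 in N-scr and at 2.04, 8.44 and 8.80 in H-scr, N-si and H-si.

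PER2 (ENSG00000132326, chr2:239152679-239198743, minus strand, hg19) was at 5.12 in N-scr against 4.31 in H-scr and 6.79 in N-si against 5.54 in H-si. With hypoxia it was at 0.842 of the normoxic level in scrambled cells (0.755 to 0.937) and at 0.816 in TET1-si cells (0.742 to 0.898). The 2 responses were close, with a ratio of 0.970 (0.842 to 1.12). After knockdown the level was 1.29-fold higher under hypoxia (1.16 to 1.43) and 1.33-fold higher under normoxia (1.20 to 1.46). PER2 was the only period gene below its normoxic level in both hypoxic libraries.

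PER3 (ENSG00000049246, chr1:7844380-7905237, plus strand, hg19), generally held to be the period gene the rhythm can best do without, had the largest fold of the 10 in any comparison. Its FPKM was 1.39 in N-scr against 5.97 in H-scr and 2.02 in N-si against 2.04 in H-si, from 195, 896, 304 and 281 approximate reads. H-scr stood apart from the other 3 libraries, and the TET1-si libraries could not be separated from each other. PER3 was 4.30-fold higher with hypoxia in scrambled cells (3.67 to 5.04), and the ratio in TET1-si cells was 1.01 (0.855 to 1.19). Under hypoxia the level was 2.92-fold lower in TET1-si cells, at 0.342 of the scrambled level (0.298 to 0.392), while under normoxia it was 1.46-fold higher (1.21 to 1.75). The hypoxia response in TET1-si cells was 0.235 of that in scrambled cells (0.188 to 0.294).

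PER3 shares exon bases with genes on the other strand, 868 bases with UTS2 and 482 with the noncoding gene ENSG00000236266. UTS2, which encodes urotensin, was at 0.941 in N-scr against 2.14 in H-scr and 0.821 in N-si against 0.832 in H-si. ENSG00000236266 was at 0.0706, 0.792, 0.198 and 0.360 in the same order. Both were highest in H-scr, as PER3 was, and reads in the shared bases cannot be told apart, so the size of the PER3 change is uncertain. Genes near PER3 had TET1-si medians of 0.12 under hypoxia and 0.28 under normoxia on the log2 scale.

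The cryptochrome genes, which encode the partners of PER, moved in opposite directions. CRY1 (ENSG00000008405, chr12:107385142-107487607, minus strand, hg19) was at 17.5 in N-scr against 15.5 in H-scr and 12.7 in N-si against 6.21 in H-si, from 1106, 1051, 862 and 385 approximate reads. The H-si library was the lowest by far, and the counting interval of every step between the ordered levels excluded a ratio of 1. The hypoxic level of CRY1 was 0.888 of the normoxic one in scrambled cells (0.815 to 0.967) and 0.488 of it in TET1-si cells (0.431 to 0.551), which is 2.05-fold lower. After knockdown it was at 0.728 of the scrambled level under normoxia (0.665 to 0.796) and at 0.400 under hypoxia (0.355 to 0.450), which is 2.50-fold lower. Genes around CRY1 were lower too, with log2 medians of -0.49 under hypoxia and -0.27 under normoxia, which left CRY1 at -0.82 and -0.18.

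CRY2 (ENSG00000121671, chr11:45868669-45904798, plus strand, hg19) was at 5.06 in N-scr against 5.68 in H-scr and 6.64 in N-si against 9.03 in H-si. Its highest level was thus in the library where CRY1 had its lowest. The hypoxia response was 1.12-fold in scrambled cells, with an interval that included 1 (0.989 to 1.28), and 1.36-fold in TET1-si cells (1.22 to 1.51). The knockdown response was 1.31-fold under normoxia (1.16 to 1.48) and 1.59-fold under hypoxia (1.42 to 1.78).

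NR1D2 (ENSG00000174738, chr3:23986751-24021237, plus strand, hg19), the REV-ERB beta repressor of ARNTL, was the steadiest member. Its FPKM was 16.7 in N-scr against 20.2 in H-scr and 18.4 in N-si against 19.7 in H-si. The hypoxia response was 1.21-fold in scrambled cells (1.14 to 1.29) and 1.07-fold in TET1-si cells (1.01 to 1.13). TET1-si left it at 0.974 of the scrambled level under hypoxia, with an interval that included 1 (0.919 to 1.03), and at 1.10 under normoxia (1.04 to 1.17). On the log2 scale the normoxic value of 0.14 changed to -0.03 with median-of-ratios or upper-quartile scaling, and the hypoxic value of -0.04 changed to 0.03 in TPM, so neither has a firm direction.

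DBP (ENSG00000105516, chr19:49133287-49140695, minus strand, hg19), the D-box activator whose own transcription is an output of the E-box loop, was at 2.19 in N-scr against 3.36 in H-scr and 1.85 in N-si against 4.97 in H-si. These values rested on only 98, 160, 88 and 217 approximate reads. Both hypoxic libraries were above both normoxic ones, and here H-si was the highest. The hypoxia response was 1.54-fold in scrambled cells (1.18 to 1.98) and 2.69-fold in TET1-si cells (2.09 to 3.49), a ratio of 1.75 (1.23 to 2.49). DBP and CRY2 were the 2 members with a larger hypoxia response in TET1-si cells, by 1.21-fold in CRY2 (1.03 to 1.43). The TET1-si response of DBP under normoxia was 0.844, with an interval that included 1 (0.622 to 1.13). SPHK2 shares 661 bases of exon with DBP on the opposite strand and ranged from 4.74 in H-scr to 8.23 in H-si, above DBP in every library, and reads in the shared bases cannot be told apart.

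**Figure D3:**
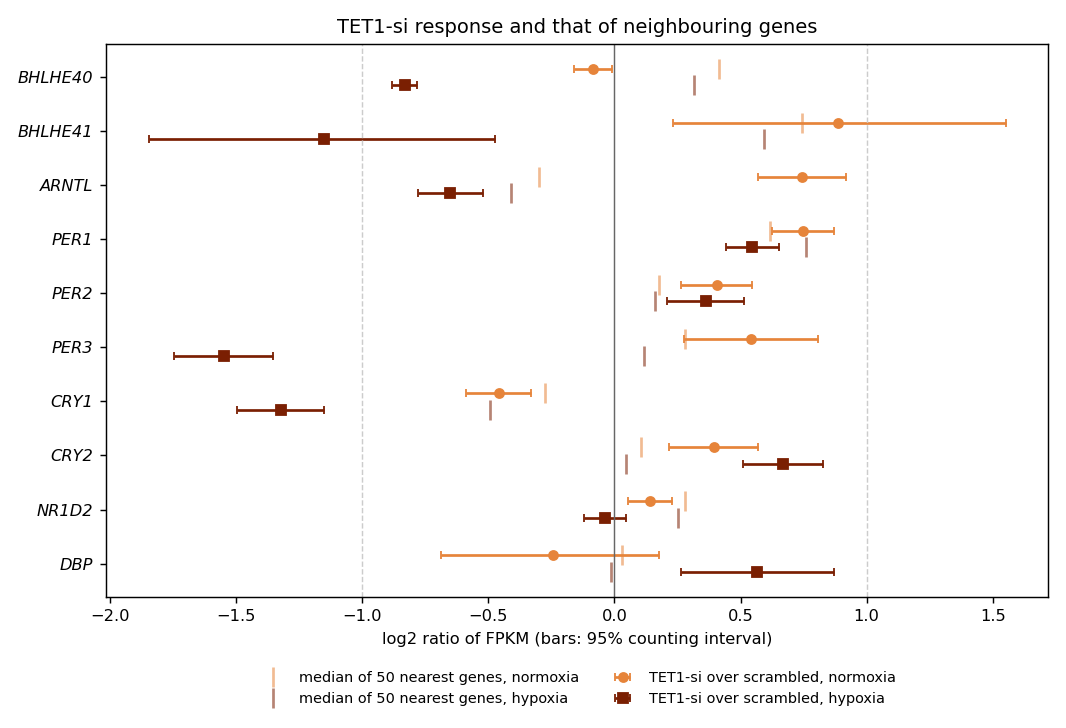
TET1-si response of each gene (log2 ratio of TET1-si to scrambled, with no pseudocount) under normoxia (circles) and hypoxia (squares), with 95% counting intervals; vertical ticks are medians of the 50 nearest protein-coding genes and dashed lines mark 2-fold. ARNTL, PER3 and BHLHE41 lie right of 0 under normoxia and left of 0 under hypoxia, and PER1 lies close to the ticks of its neighbours.

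For counts of changed genes, levels were compared as log2(FPKM + 0.1), a change of at least 1 on that scale was counted, and a gene needed a mean FPKM of at least 1, which 9 of the 10 members passed. The pseudocount of 0.1 shrinks the changes of weakly expressed genes. In scrambled cells 3 of the 9 members were at least 2-fold higher in hypoxia (ARNTL, PER3 and BHLHE40), where 12.9% of the 15057 genes were, and 0 were lower, where 4.53% of all genes were. The median of the 9 was 0.55, against 0.05 over all genes. The members were chosen with earlier results of these data known, so comparisons with all genes are not a test of the members as a set. PER3 lay above 96.5% of all genes, BHLHE40 above 95.3% and ARNTL above 93.7% in this response.

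In TET1-si cells DBP and BHLHE40 were at least 2-fold higher in hypoxia, where 12.5% of all genes were, and CRY1 was at least 2-fold lower, where 8.66% were. The median of the 9 was 0.15, against 0.03 over all genes. BHLHE40 was the one member past 2-fold in both knockdown states. Its log2 value in TET1-si cells was 1.03 and that of CRY1 was -1.02, both close to the limit.

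After knockdown under hypoxia, PER3 (-1.50) and CRY1 (-1.31) were at least 2-fold lower, where 8.35% of all genes were, and 0 members were higher, where 12.0% were. Less the median of its nearest genes CRY1 was at -0.82 and no longer past the limit, and BHLHE40, at -0.83 as measured, was past it at -1.15. Under normoxia 0 members passed in either direction, where 12.1% of all genes were higher and 5.56% lower. The medians of the 9 were -0.04 under hypoxia and 0.39 under normoxia, against 0.10 and 0.15 over all genes. The hypoxia response was at least 2-fold smaller in TET1-si than in scrambled cells for ARNTL (-1.39) and PER3 (-2.02), where 7.86% of all genes were, and at least 2-fold larger for 0 members, where 4.87% were. These comparisons share libraries and are not independent of each other.

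The study selected TET1-dependent genes by 3 criteria, namely that H-scr exceeds H-si more than 2-fold, that N-scr is below H-scr, and that N-si is no higher than N-scr. Applied to the FPKM, they were met together by 578 of the 15057 genes with a mean of at least 1 (3.84%). The study states no such minimum, so 578 is not its own count. They were met together by 0 of the 10 members, BHLHE41 with its lower mean included. PER3, CRY1 and BHLHE41 met the criterion on H-si, 8 of the 10 met that on hypoxia, and CRY1, DBP and BHLHE40 met that on normoxia. The share of all genes that met each single criterion was not computed, so these counts cannot be set against it. The criterion on hypoxia asks for any rise, and the median log2 response of all genes in scrambled cells was 0.05. PER3 and BHLHE41 missed only the criterion on normoxia, since N-si was above N-scr. BHLHE40 and DBP missed only that on H-si, with H-scr at 1.78 times H-si for BHLHE40 and below H-si for DBP. CRY1 missed only that on hypoxia, since H-scr was below N-scr.

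Paralogues changed in their proportions. ARNTL made up 29.7% of the summed FPKM of ARNTL and ARNTL2 in N-scr against 63.7% in H-scr and 28.2% in N-si against 57.6% in H-si. ARNTL was thus the minor form in both normoxic libraries and the major form in both hypoxic ones, also in TET1-si cells, where ARNTL itself hardly changed and ARNTL2 went from 31.1 to 9.93. In scrambled cells ARNTL2 went from 17.2 to 12.1. Of the summed cryptochrome level, CRY1 made up 77.6% in N-scr against 73.2% in H-scr and 65.7% in N-si against 40.7% in H-si. H-si was the one library with more CRY2 than CRY1, and the sum of both was 22.5, 21.2, 19.4 and 15.2 in the same order.

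The summed period level was 14.7 in N-scr against 22.4 in H-scr and 22.6 in N-si against 25.3 in H-si. PER3 made up 26.6% of it in H-scr and between 8.07% and 9.42% in the other 3 libraries. PER1 was the largest share in every library, from 54.1% in H-scr to 70.0% in H-si. Of CLOCK and NPAS2, the alternative partners of ARNTL, NPAS2 was at 0.794 and 0.963 in the scrambled libraries (N-scr, H-scr) but at 5.71 and 3.01 in those with TET1-si (N-si, H-si). The share of CLOCK in their sum was 93.4%, 88.0%, 71.5% and 79.5% in N-scr, H-scr, N-si and H-si. The ratio of ARNTL to CLOCK was 0.651 in N-scr against 3.01 in H-scr and 0.850 in N-si against 1.16 in H-si.

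**Figure D4:**
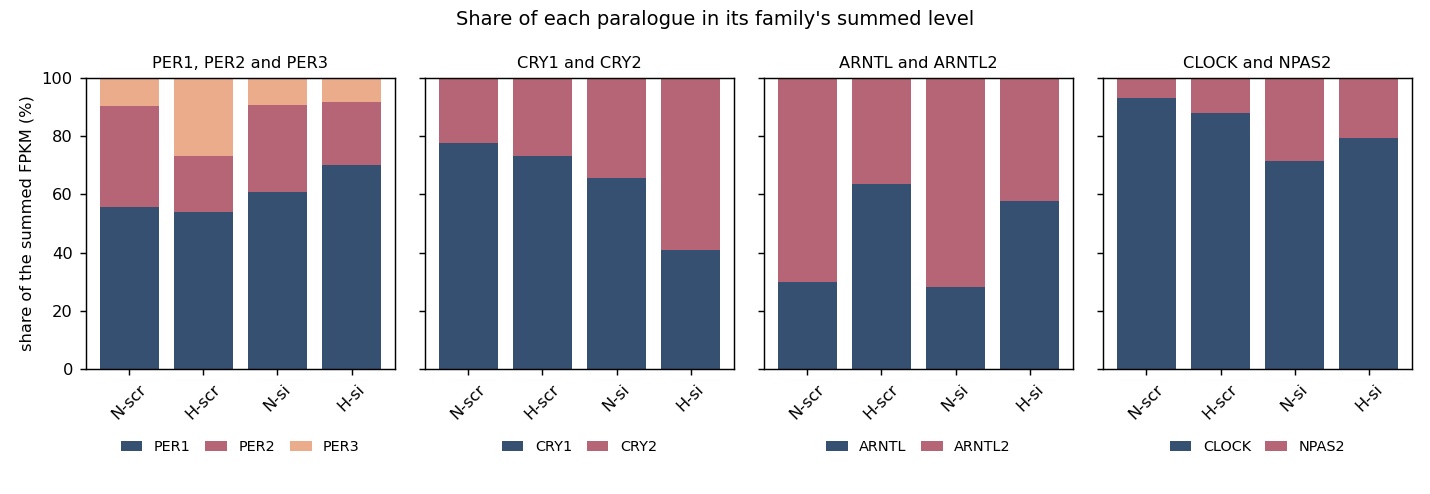
Share in percent of each paralogue in the summed FPKM of its family (stacked bars, 1 per library). CRY2 is above CRY1 in H-si, ARNTL is above ARNTL2 in both hypoxic libraries, and PER3 has its largest share, 26.6%, in H-scr.

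Other genes of the clock were counted from a list of 25, of which 24 were used and 19 had a mean of at least 1. The shares of all genes past 2-fold given above for each comparison also stand beside the counts of this list and of those that follow. In hypoxia in scrambled cells RORA, an activator of ARNTL, was at least 2-fold higher, TIPIN was lower, and the median of the 19 was -0.01. RORA was at 1.40 in N-scr against 3.07 in H-scr and 0.841 in N-si against 2.64 in H-si, so both hypoxic libraries were above both normoxic ones. In TET1-si cells RORA was again higher, and TIPIN, TIMELESS and ARNTL2 were lower, with a median of -0.12. TIMELESS and TIPIN encode a pair of replication fork proteins, and they were at 46.8 and 40.2 in N-scr against 37.7 and 10.5 in H-scr, and at 40.1 and 33.7 in N-si against 13.1 and 9.31 in H-si. NR1D1, the paralogue of NR1D2, was at 1.68, 3.46, 2.18 and 2.41 in N-scr, H-scr, N-si and H-si, highest in H-scr as ARNTL and PER3 were.

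After knockdown under hypoxia NPAS2 and CSNK1D were at least 2-fold higher, TIMELESS and NAMPT were at least 2-fold lower, and the median of the 19 was -0.21. Under normoxia NPAS2 alone passed, upward, with a median of -0.13. CSNK1D, a kinase that marks PER proteins for degradation, was at 131.0 in N-scr against 161.5 in H-scr and 256.4 in N-si against 378.2 in H-si. NAMPT, which makes a precursor of NAD, was at 110.8, 126.8, 101.4 and 57.5. The hypoxia response was at least 2-fold lower in TET1-si than in scrambled cells for 4 of the 19, where 7.86% of all genes were. It was at least 2-fold higher for 0, where 4.87% were. On the log2 scale ARNTL2 (-0.50 in scrambled and -1.64 in TET1-si cells) and TIMELESS (-0.31 and -1.60) fell further after knockdown. NPAS2 (0.25 and -0.90) and NAMPT (0.195 and -0.82) were slightly above 0 in scrambled cells and below 0 in TET1-si cells. The value of NPAS2 in scrambled cells came from only 68.9 and 89.5 approximate reads in N-scr and H-scr, so its direction there is uncertain. ARNTL and PER3 differed, with a rise past 2-fold in scrambled cells and a value near 0 in TET1-si cells.

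The pathways that meet the BHLHE genes gave a background for these changes. Of 15 known hypoxia targets, 13 were up at least 2-fold with hypoxia in scrambled and 12 in TET1-si cells, and 0 were lower in either, with medians of 2.04 and 1.49. The log2 response of BHLHE40, 1.78 and 1.03, lay under both medians. The difference of the 2 responses was below 0 for 13 of the 15, with a median of -0.59, and 3 were at least 2-fold smaller in TET1-si cells. The difference was -0.75 for BHLHE40, near that median, and -1.39 and -2.02 for ARNTL and PER3, beyond it. The hypoxia targets themselves were 0 higher and 2 lower after knockdown under hypoxia, and 4 higher and 3 lower under normoxia. CA9 was among the lower genes in both states and among the 3 with a smaller response. It was at 0.180 in N-scr against 7.82 in H-scr and 0 in N-si against 0.506 in H-si. It reached the minimum mean of 1 only through H-scr, so its counts that involve H-scr are not independent of that filter. Its normoxic call compares 5.48 approximate reads with 0.

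Of the HIF subunits and other proteins with the same bHLH-PAS fold as ARNTL and CLOCK, 7 of 9 used had a mean of at least 1. EPAS1, which encodes HIF-2α, was at 13.3 in N-scr against 21.7 in H-scr and 26.8 in N-si against 62.4 in H-si, highest in H-si. ARNT, the common HIF partner, was at 15.1, 22.8, 22.2 and 31.6. With hypoxia, 1 of the 7 was past 2-fold upward in scrambled and 3 of the 7 in TET1-si cells, with 0 lower. After knockdown 3 were higher (EPAS1, NPAS1 and SIM2) and 0 lower under hypoxia. Under normoxia 4 were higher (the same genes and ARNT2) and 1 was lower (AHRR). NPAS1, also the 1 gene past 2-fold in scrambled cells, was at 0.0788 in N-scr against 0.649 in H-scr and 0.580 in N-si against 4.12 in H-si. It reached the minimum mean of 1 only through H-si, so its counts as higher in H-si are not independent of that filter. Its N-scr level came from only 3.39 approximate reads, so its changes against N-scr are imprecise. SIM2 under hypoxia (1.03) and EPAS1 (1.01) and ARNT2 (1.05) under normoxia lay close to the limit on the log2 scale. The difference of responses passed 2-fold upward for 1 (AHRR, 2.05) and downward for 1 (AHR). The value of AHR, -1.007, also lay close to the limit.

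Among 12 other helix-loop-helix repressors of the HES, HEY and ID families, 5 had a mean of at least 1. HES6 was at 1.11 in N-scr against 4.97 in H-scr and 2.38 in N-si against 2.39 in H-si, so it too was highest in H-scr with TET1-si libraries that lay close together. It was the 1 gene of the 5 that was past 2-fold upward with hypoxia in scrambled cells and the 1 whose response was at least 2-fold smaller in TET1-si cells. ID3 was the 1 gene at least 2-fold higher in hypoxia in TET1-si cells. After knockdown ID3 was higher and HES6 lower under hypoxia, and HES6 was higher and ID1 lower under normoxia. The log2 values of HES6, -1.03 under hypoxia and 1.03 under normoxia, lay close to the limit. HES6 came from only 29.3 to 140.3 approximate reads per library and ID3 from 36.4 to 114.8.

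The genes with a pattern most like that of BHLHE40 were sought among 9464 protein-coding genes with a mean of at least 5, by the distance of their centred log2 levels over the 4 libraries. The nearest were DHX58 (0.18), SYT17 (0.20) and MAP3K10 (0.23). DHX58 was at 15.1 in N-scr against 53.2 in H-scr and 13.8 in N-si against 33.3 in H-si. For BHLHE41 the nearest of 9465 genes were IL6 (0.20), MYEOV (0.23) and PDP1 (0.23), and IL6 was at 3.51, 6.83, 7.01 and 3.13. With 4 libraries such likeness describes the order and spacing of 4 values only. The levels of BHLHE41 came from 27 to 65 approximate reads, and the distances take no account of counting error. The pseudocount of 0.1 also shrinks its changes more than those of genes with a mean of at least 5. Which genes are nearest to BHLHE41 is therefore uncertain.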

How the data were processed

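RNA-Seq libraries were made by the authors with TruSeq chemistry, 1 per group, and read at 100 bp (single end per the labels, paired end per the methods). The authors ran TopHat and Cufflinks on hg19 with Ensembl annotation and deposited FPKM per gene. Versions, filters and strand are not given in the sources used here. Depth was recovered from 6326 genes with 1 exon, of whose low values 97.6% to 97.9% were whole within 0.05, and was checked on simulated data. Approximate reads are FPKM times depth times the canonical length in GENCODE v44lift37 less 212 bp. Intervals of a ratio are exact (Clopper-Pearson), and those of a difference of responses use a normal approximation on log reads. Changes used log2(FPKM + 0.1), and counts took genes whose FPKM averaged at least 1. The 111 gene IDs listed more than once (232 entries), HIF1A and PECAM1 among them, were left out. No p-value was computed, since each group had 1 library.

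Members and gene lists were chosen with earlier results of these data known. All 10 members are named. Of the other lists every gene was counted, and examples were named from those at least 2-fold changed in a comparison or set beside a member as paralogue, partner or marker, and for each BHLHE gene the 3 nearest patterns. Alternatives were pseudocounts of 1 and 0.01, median-of-ratios, upper-quartile and TPM scaling, subtraction of the median of the 50 nearest genes, no minimum, a minimum of 5, and a limit of 1.5-fold. Python 3.11.15, pandas 2.3.3, numpy 2.4.6 and scipy 1.17.1 were used. Coordinates of genes are hg19 with starts counted from 1, and promoter sequences are from RefSeq on GRCh38.p14, matched by symbol or synonym.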

Additional observations from a re-analysis of the deposited data

Results flagged for a closer look

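In BHLHE41 the hypoxia response had opposite signs in the 2 knockdown states, 0.81 in scrambled and -0.89 in TET1-si cells on the log2(FPKM + 0.1) scale, a difference of -1.70. The TET1-si response of BHLHE41 likewise was 0.74 under normoxia and -0.96 under hypoxia, and since the same 4 libraries enter, the difference is again -1.70. Less the median of the 50 nearest genes, the normoxic value was -0.001, so the opposite signs were lost, while the hypoxic value was -1.55. In ARNTL the TET1-si response was 0.74 under normoxia and -0.65 under hypoxia, a difference of -1.39 (unrounded -1.385). In PER3 it was 0.51 and -1.50, a difference of -2.02 (unrounded -2.015). In NR1D2 it was 0.14 and -0.04, a difference of -0.18, where the counting interval of the hypoxic value included 0. In DBP it was -0.23 and 0.55, a difference of 0.78, where the counting interval of the normoxic value included 0. With 1 library per group none of these differences was tested against replicate error.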

How the results depend on the processing

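The 50 changes of the 10 members were recomputed under each alternative. They kept their sign with a pseudocount of 1 or 0.01, while 2 changed sign with median-of-ratios scaling, 2 with upper-quartile scaling, 1 in TPM and 3 less the median of the 50 nearest genes. Those scalings moved the median TET1-si response over all genes from 0.10 to -0.01 under hypoxia and from 0.15 to -0.004 under normoxia (median-of-ratios), and TPM moved the hypoxia response to 0.16 in both knockdown states.

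Counts of members past 2-fold changed as follows. The shares of all genes under these settings were not computed, so a count that moved cannot be set against them. A limit of 1.5-fold also lets through more of all genes. The members higher in hypoxia in scrambled cells went from 3 to 2 at a minimum of 5 and to 4 at 1.5-fold. The members lower in hypoxia in TET1-si cells went from 1 to 0 with a pseudocount of 1, in TPM, and less the nearest genes. The members higher there went from 2 to 1 less the nearest genes and at a minimum of 5. After knockdown under hypoxia, members lower went from 2 to 1 at a minimum of 5 and to 4 at 1.5-fold, and members higher went from 0 to 1 at 1.5-fold. Less the nearest genes 2 were lower as well, but CRY1 (-0.82) was lost and BHLHE40 (-1.15) was gained. Under normoxia members higher went from 0 to 1 less the nearest genes and to 2 at 1.5-fold. Members whose hypoxia response was lower in TET1-si cells went from 2 to 3 with no minimum, to 1 at a minimum of 5 and to 4 at 1.5-fold. Those with a higher response there went from 0 to 1 at 1.5-fold. The cause of each change was not tested beyond the construction of the alternative. No paired analysis was possible because each group had 1 library. BHLHE41 and DBP rest on few reads, so their folds are the least precise.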
